A study of Mus musculus with 18 samples.

Results

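Transcripts of 10 interferon-inducible GTPases were followed in 4T1 mouse mammary carcinoma cells and in populations of these cells selected with the HSP90 inhibitor 17-DMAG. The genes were Gbp2, Gbp3, Gbp5, Gbp6, Gbp7 and Gbp9 of the guanylate-binding protein (GBP) family and Igtp, Irgm1, Irgm2 and Iigp1 of the immunity-related GTPase (IRG) family. They were taken by symbol, as the 10 rows with these names among the 24421 rows of the count table, and all 10 were among the 13507 genes that passed the filter on low counts. The cells were parental 4T1 (labeled wild type, strain BALB/cfC3H) and 4T1R1 and 4T1R2, which were derived from 4T1 by separate repeated exposures to 17-DMAG, so each stands for a single selection. Cells of each population were left untreated or given 17-DMAG at 1.5 µM, which makes 6 groups with 3 libraries in each. The sample records give an exposure of 48 h and the text on the series gives 2 h, so the length of exposure is not settled here.

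GBPs and IRGs are GTPases that assemble on the membranes of vacuoles holding intracellular bacteria or parasites and help to break these vacuoles open. Interferons induce them through transcription factor complexes that bind the interferon-stimulated response element (ISRE) or the gamma-activated site (GAS) in promoters, and IRF1 acts on the former as well. Among IRGs, Irgm1, Irgm2 and Igtp are regulators that sit on the cell's own membranes and keep the effector IRGs, such as Iigp1, inactive there.

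Values named normalized counts are counts scaled to a common library size. Totals per library ran from 23354461 to 55094630 counts (median 30747713.5). In the group of 4T1 given 17-DMAG, the counts of replicates 1 and 2 agreed within sampling noise, differing less than separate libraries do (chi-square per gene 1.10, against 2.04 to 2.22 in the 17 other pairs of one group) and were averaged and counted as 1 sample, so n = 2 in that group and 17 libraries were fitted. Library names of 4T1R1 form a run apart from those of 4T1 and 4T1R2, so a value particular to 4T1R1 and one particular to its run cannot be told apart. The epithelial markers Krt8, Krt18, Krt7, Krt14, Epcam and Cdh1 were counted in all groups and summed to 75300 to 76260 normalized counts in untreated 4T1, 50460 to 52940 in untreated 4T1R1 and 58680 to 59860 in untreated 4T1R2. Of 8 leukocyte markers, 3 to 5 had at most 3 counts over the libraries of a group, Ptprc had 4 to 19 counts per library in all groups, and most of the sum was Cd68. Endothelial markers summed to 1.90 to 17.5 and fibroblast markers, nearly all Pdgfra, to 399.5 to 1043. The leukocyte sum ran from 145 to 204.8 in untreated 4T1, from 231.5 to 236.8 in untreated 4T1R1 and from 221.5 to 258.2 in untreated 4T1R2. In these 3 groups the means of Cd68 were 146.6, 202.9 and 185.5 and those of Csf1r 10.27, 14.11 and 30.56. Ptprc went the other way, at 14.94, 5.85 and 10.24. After 17-DMAG the sums of 4T1 (178.6 to 210.6) and 4T1R1 (210 to 238) overlapped, and those of 4T1R2 were 218.7 to 238.9. The part of these markers in the differences was not tested. In these bulk libraries a larger number of expressing cells and more RNA per cell cannot be told apart.

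The genes lie in few clusters of GRCm38. Gbp5 (chr3:142493978-142522344), Gbp7 (chr3:142530342-142550149), Gbp3 (chr3:142560026-142573209) and Gbp2 (chr3:142620602-142638008) follow each other on the plus strand. Gbp9 (chr5:105077630-105139539) and Gbp6 (chr5:105270702-105293698) lie on the minus strand. Irgm1 (chr11:48861968-48871683) is on the minus strand, while Igtp (chr11:58199556-58207591) and Irgm2 (chr11:58199618-58222782) lie on the plus strand, overlap and share 162 exon bases. Reads of close copies could not all be placed with certainty. Of the 50-base windows in its transcripts, Gbp6 shared 70.7% with other genes, 65.0% with Gm43302 alone. That annotation lies over 1726 of the exon bases of Gbp6 and has no row of counts, so it is not a copy elsewhere. Gbp10, a separate gene with counts, shared 73.3% of its own windows with Gbp6. Shared windows made up 12.7% in Gbp7 (10.5% with Gm43802, which overlaps its exons and has no row of counts), 11.8% in Igtp (all with Irgm2), 8.05% in Gbp9 and 7.77% in Irgm2. They made up at most 3.75% in each of Gbp2, Gbp3, Gbp5, Irgm1 and Iigp1. The treatment of reads with several matches is not given in the sources used here, so values of Gbp6 in particular are uncertain.

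RefSeq promoters (GRCm38.p6, 250 bases before to 50 after a transcript start) were matched for 7 of the 10 genes: Gbp2, Gbp3, Gbp5, Gbp7, Igtp, Irgm1 and Irgm2. Gbp3 has a second RefSeq promoter (chr3:142560106-142560405, plus strand), which held none of the 4 motifs searched and is not printed. The promoters are shown because the genes were higher together in the selected populations, and for Gbp3 the first promoter is the one printed. The stretches run from 130 bases before to 20 after the start, and for Gbp5, where the ISRE core lies farther out, over the whole 300 bases. Capitals mark the ISRE core (AAANNGAAA, or TTTCNNTTT on the other strand) and the GAS (TTCNNNGAA, the same on both strands). All sequences are written 5′ to 3′ on the strand of the gene. Positions are chr3:142620533-142620682 (Gbp2, plus), chr3:142559914-142560063 (Gbp3, plus), chr3:142496684-142496983 (Gbp5, plus), chr3:142530206-142530355 (Gbp7, plus), chr11:58199426-58199575 (Igtp, plus), chr11:58214847-58214996 (Irgm2, plus) and chr11:48871401-48871550 (Irgm1, minus).
Gbp2: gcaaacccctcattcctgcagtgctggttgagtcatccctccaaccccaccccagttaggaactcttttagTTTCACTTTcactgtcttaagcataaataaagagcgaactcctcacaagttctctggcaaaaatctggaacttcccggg
Gbp3: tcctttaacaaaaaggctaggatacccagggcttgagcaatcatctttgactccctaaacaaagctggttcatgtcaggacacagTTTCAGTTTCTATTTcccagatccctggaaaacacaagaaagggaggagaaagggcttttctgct
Gbp5: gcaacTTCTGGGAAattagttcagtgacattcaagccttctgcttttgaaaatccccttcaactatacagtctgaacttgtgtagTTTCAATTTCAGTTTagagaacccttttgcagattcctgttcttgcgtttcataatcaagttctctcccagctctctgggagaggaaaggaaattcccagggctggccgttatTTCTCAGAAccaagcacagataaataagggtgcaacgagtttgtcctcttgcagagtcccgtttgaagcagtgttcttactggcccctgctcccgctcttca
Gbp7: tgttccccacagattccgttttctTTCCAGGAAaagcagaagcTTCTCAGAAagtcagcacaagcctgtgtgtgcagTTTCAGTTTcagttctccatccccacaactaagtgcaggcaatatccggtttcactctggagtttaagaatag
Igtp: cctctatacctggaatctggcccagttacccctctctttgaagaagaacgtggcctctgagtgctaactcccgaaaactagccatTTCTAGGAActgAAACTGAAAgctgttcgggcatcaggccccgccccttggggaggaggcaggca
Irgm2: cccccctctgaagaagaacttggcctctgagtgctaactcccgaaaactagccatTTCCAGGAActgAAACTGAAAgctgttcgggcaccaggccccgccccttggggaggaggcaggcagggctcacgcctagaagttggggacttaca
Irgm1: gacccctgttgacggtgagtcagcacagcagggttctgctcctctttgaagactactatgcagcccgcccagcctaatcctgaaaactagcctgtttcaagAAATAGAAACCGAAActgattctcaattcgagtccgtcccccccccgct

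The ISRE core was held by 7 of the 8 promoters of these genes, all but the second of Gbp3, and by 10.6% of the 32851 promoters of this length. Counted from the transcript start, its first base stood at -59 in Gbp2, at -53 in Gbp7, at -33 in Igtp and at -63 in Irgm2. Overlapping pairs of cores stood at -45 and -39 in Gbp3, at -165 and -159 in Gbp5 and at -29 and -23 in Irgm1, and 1.33% of all promoters held more than 1 core. A GAS was found in Gbp5 (-245 and -52), Gbp7 (-106 and -87), Igtp (-45) and Irgm2 (-75), against 8.30% of all promoters. In Igtp and Irgm2 the GAS began 12 bases before the ISRE core, an arrangement chosen for counting after it was seen in these sequences. It occurred in 6 of the 32851 promoters, 4 of them those of Igtp, Irgm2 and the further IRG genes Tgtp1 and Tgtp2, whose sequences resemble each other. The κB letters (GGGNNTTTC, or GAAANNCCC) were found in Gbp2 (-200), Gbp3 (7) and Gbp5 (-203 and -76), against 4.36% of all promoters. The heat shock element core (GAANNTTC, the same on both strands) was found in Gbp7 alone of these genes (-92), where it overlaps a GAS, against 7.86% of all promoters. A match describes letters and not a site in use, and no match says only that these letters are not in this window.

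**Figure D1:**
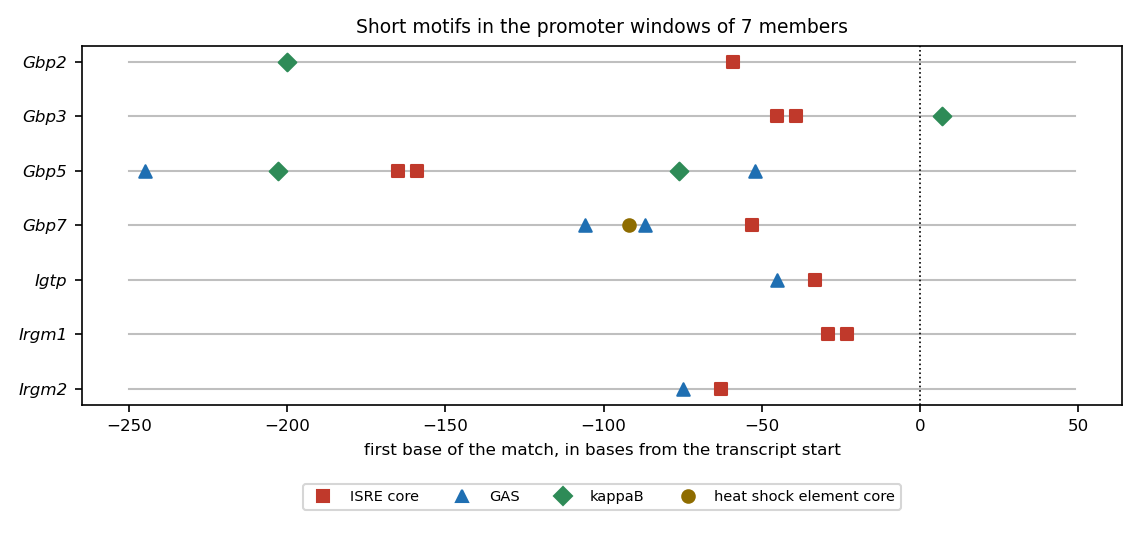
Matches of 4 short motifs in the promoter windows of 7 members (for Gbp3 the first of its promoters, the second having no match), with the first base of each match in bases from the transcript start on the x axis and 1 line per gene. Each window drawn has at least 1 ISRE core, and Igtp and Irgm2 have a GAS 12 bases before theirs.

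Every one of the 10 genes was higher in the selected populations than in 4T1. Over the 5 libraries of 4T1 and the 12 of 4T1R1 and 4T1R2, treated or not, the highest value in 4T1 was below the lowest in the selected populations for 10 of the 10. How many of all genes tested separate in this way was not counted, so whether the 10 stand out by it was not tested. By another measure, the calls among untreated cells alone, 25.2% of all genes were higher in 4T1R1 and 25.7% in 4T1R2 than in 4T1. In fold the narrowest gap was that of Irgm1, from 461.2 to 612.9 normalized counts, and the widest that of Gbp2, from 68.36 to 322.

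**Figure D2:**
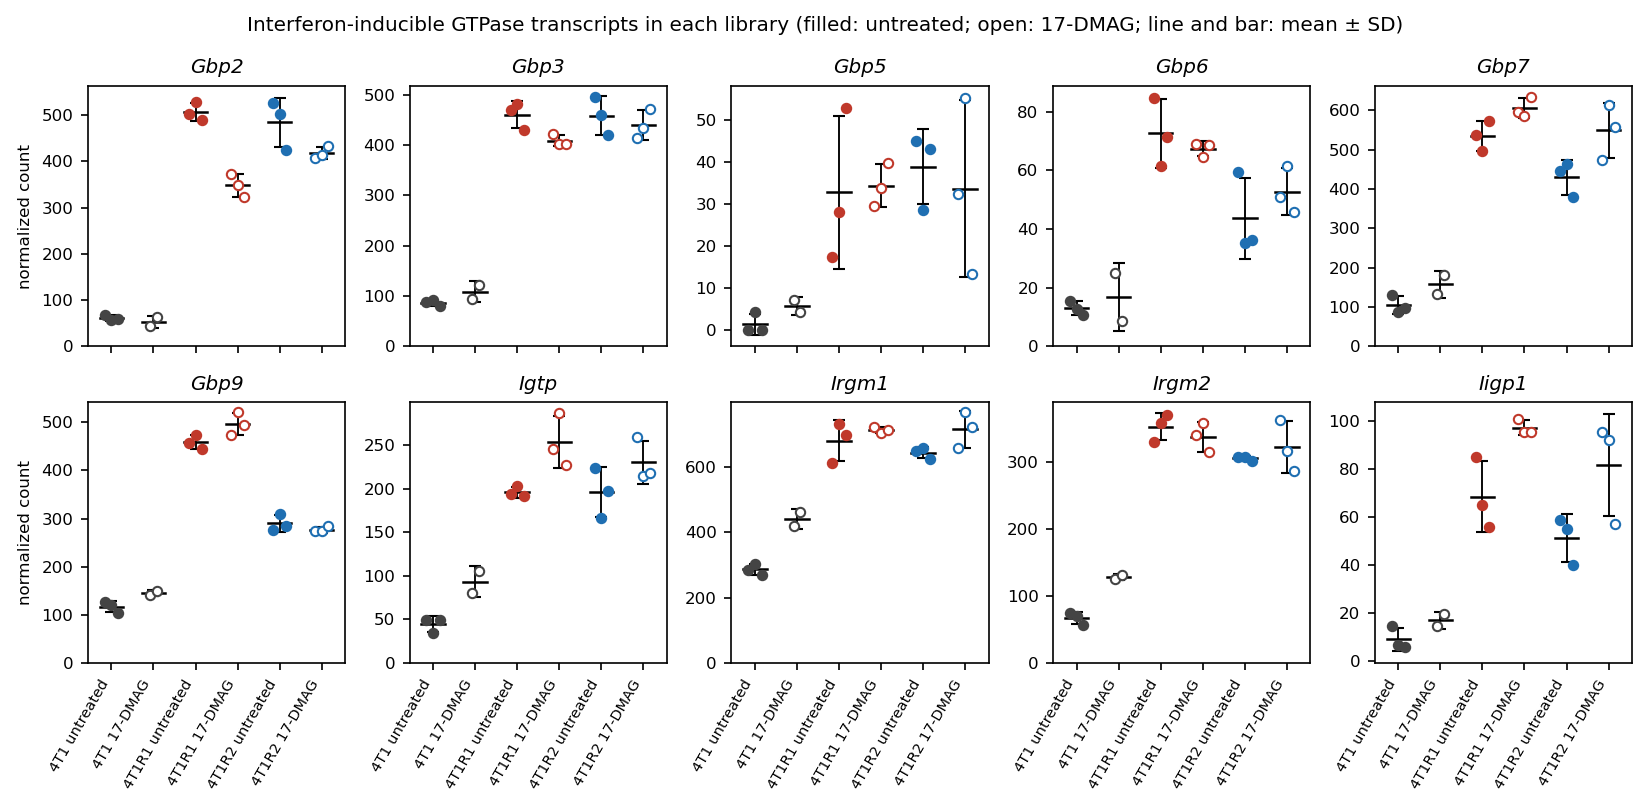
Normalized counts of the 10 members in each library (points, filled untreated and open 17-DMAG) with the mean and SD of each group, 1 panel per gene with its own y axis. In each panel all 5 values of 4T1 lie below all 12 values of 4T1R1 and 4T1R2.

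Among the GBPs, Gbp2, which ends in a prenylation signal that anchors it to membranes, had 68.36, 57.7 and 58.51 normalized counts in untreated 4T1. It had 502.8, 527.7 and 488.4 in untreated 4T1R1 and 526.5, 502.1 and 424.5 in untreated 4T1R2. The groups of 4T1 and of either selected population did not overlap, while those of 4T1R1 and 4T1R2 did. Its log2 fold change against 4T1 was 3.04 ± 0.137 (SE; adjusted p = 2.3e-27, edgeR's quasi-likelihood test with Benjamini-Hochberg adjustment) in 4T1R1 and 2.98 ± 0.139 (adjusted p = 1.01e-26) in 4T1R2. Gbp3, its neighbor, had 79.97 to 91.9 normalized counts in untreated 4T1, 430.9 to 481.8 in 4T1R1 and 419.8 to 495.8 in 4T1R2. Both selected populations were 2.41 higher on the log2 scale (SE 0.122 and 0.123).

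Gbp5, which has been linked to assembly of the NLRP3 inflammasome, was near the limit of detection in 4T1. It had 0, 4.27 and 0 normalized counts in untreated 4T1 against 17.54, 28.16 and 52.93 in 4T1R1 and 45.08, 28.69 and 43.27 in 4T1R2. The groups did not overlap, and 4T1R1 had 102 raw counts in all against 4 in 4T1. The log2 fold changes of 4.47 and 4.72 (SE 1.05 in both; adjusted p = 8.71e-07 and 2.18e-07) are therefore imprecise, with intervals from 2.36 to 6.59 and from 2.61 to 6.84. Without replicate 2 of untreated 4T1, the only one with a count, the remaining libraries were at 0 and the fitted values of 8.06 and 8.31 are no measure of the size.

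Gbp6 had 10.73 to 15.54 normalized counts in untreated 4T1, 61.53 to 84.77 in 4T1R1 and 35.21 to 59.46 in 4T1R2. Gbp7, which has been linked to assembly of the NADPH oxidase, had 130.5, 87.62 and 97.52 in 4T1, 537.9, 496.4 and 572.9 in 4T1R1, and 446.9, 464.3 and 380.1 in 4T1R2. Gbp9 had 103.4 to 127.4 in 4T1, 444.8 to 473.5 in 4T1R1 and 276.2 to 310.4 in 4T1R2. For these 3 genes no group overlapped another, and 4T1R2 lay between 4T1 and 4T1R1. Against 4T1 the log2 fold changes in 4T1R1 and 4T1R2 were 2.47 and 1.76 for Gbp6, 2.35 and 2.03 for Gbp7, and 1.97 and 1.31 for Gbp9.

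Of the regulatory IRGs, Irgm1 was the most abundant of the 10 genes per length and the one with the lowest fold change. It had 285.9, 302.4 and 270.1 normalized counts in untreated 4T1, 612.9, 732.1 and 698.3 in 4T1R1 and 648.3, 657.3 and 624.5 in 4T1R2. Values of 4T1 lay apart from the others, and those of 4T1R1 and 4T1R2 overlapped. Its log2 fold change was 1.25 ± 0.0831 (adjusted p = 7.78e-19) in 4T1R1 and 1.17 ± 0.0844 (adjusted p = 1.95e-17) in 4T1R2. Irgm2 had 74.57, 70.53 and 56.56 in 4T1, 330.3, 358.8 and 369.6 in 4T1R1 and 306.9, 307.8 and 301.7 in 4T1R2. Igtp, which shares exon bases with Irgm2, had 49.72, 34.19 and 49.74 in 4T1, 193.9, 203.4 and 191.3 in 4T1R1 and 224.4, 166.9 and 197.6 in 4T1R2. In 4T1R1 and 4T1R2, Irgm2 was higher by 2.39 and 2.19 and Igtp by 2.13 and 2.14 on the log2 scale, which is 4.38- to 5.26-fold. Iigp1, the effector IRG that coats parasite vacuoles, lies apart from the other members (chr18:60376027-60392634, plus strand). It had 14.5, 6.41 and 5.85 in 4T1, 84.77, 64.66 and 55.71 in 4T1R1 and 58.5, 54.77 and 39.76 in 4T1R2. Its log2 fold changes were 2.93 ± 0.376 and 2.51 ± 0.385.

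In both comparisons with 4T1, 10 of the 10 genes passed the threshold and were higher. Genes called higher made up 25.2% of all genes tested in 4T1R1 against 4T1 (27.5% were called lower) and 25.7% in 4T1R2 against 4T1 (26.9% lower). The median log2 fold change of the 10 was 2.40 in 4T1R1 and 2.16 in 4T1R2, beside 0.00752 and 0.00676 over all genes. Both comparisons use the same untreated 4T1 libraries and are not independent. No call was lost when any 1 library was left out.

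**Figure D3:**
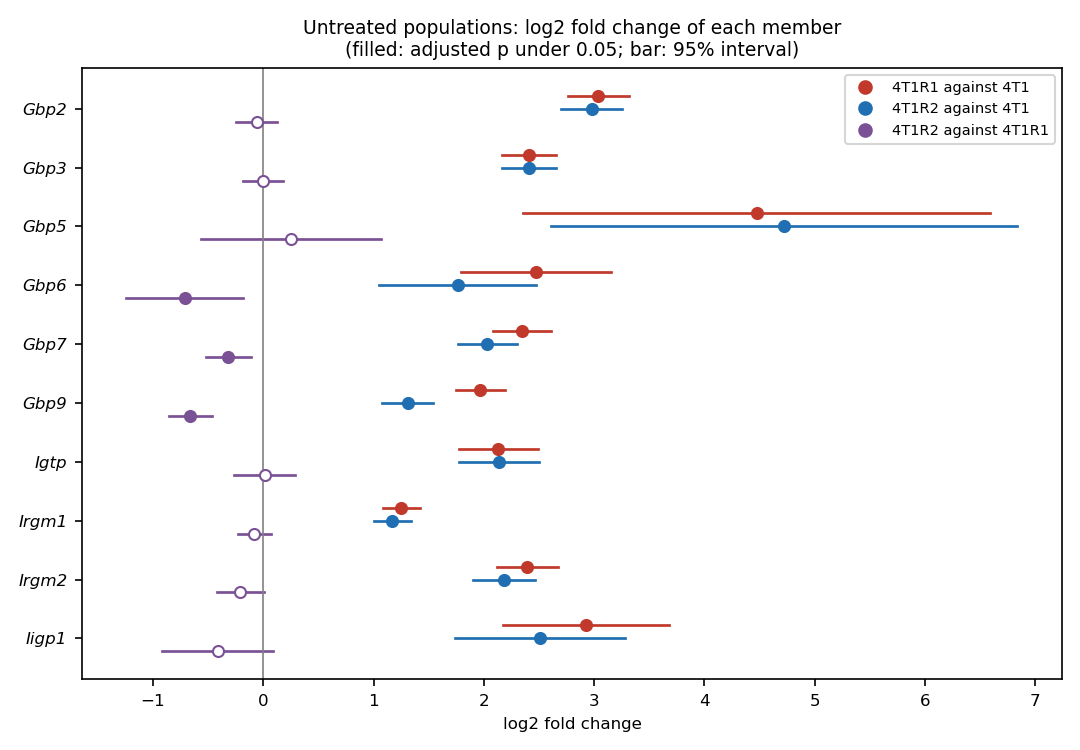
Log2 fold change of each member between untreated populations, with 95% intervals, for 4T1R1 against 4T1, 4T1R2 against 4T1 and 4T1R2 against 4T1R1 (filled where the adjusted p is under 0.05). All values against 4T1 lie above 1, and in 4T1R2 against 4T1R1 the filled points are Gbp6, Gbp7 and Gbp9.

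Between the selected populations 3 of the 10 genes differed, all of them GBPs and all lower in 4T1R2 (19% of all genes were called lower and 19.7% higher). Gbp9 differed by -0.66 ± 0.0954 on the log2 scale (adjusted p = 1.07e-07), Gbp6 by -0.71 ± 0.264 (adjusted p = 0.0267) and Gbp7 by -0.32 ± 0.101 (adjusted p = 0.0106). None of the 10 was called higher in 4T1R2 by edgeR's quasi-likelihood test, 0 at an unadjusted p under 0.05, and 0 by DESeq2. For the other 7 the intervals of the difference ran from -0.25 to 0.13 for Gbp2, from -0.19 to 0.18 for Gbp3, from -0.26 to 0.29 for Igtp, from -0.23 to 0.07 for Irgm1 and from -0.42 to 0.003 for Irgm2. Gbp5 (-0.57 to 1.07) and Iigp1 (-0.92 to 0.09) were too sparse to bound the difference as closely. The call of Gbp6 was lost without any 1 of 4T1R1 replicate 1 (adjusted p = 0.122) or 3 (0.0504) or 4T1R2 replicate 2 (0.114) or 3 (0.115). That of Gbp7 was lost without 4T1R1 replicate 3 (-0.27, adjusted p = 0.0613) or 4T1R2 replicate 3 (-0.24, adjusted p = 0.0945), and with Gbp3 and Gbp7 summed to 1 feature (-0.16, adjusted p = 0.0792).

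Levels of different genes were compared per length, taken as the merged exons of the basic transcripts of the GENCODE annotation. The authors counted reads on another annotation, so shares and orders depend on these lengths, which the SDs do not cover. Per kilobase of exon the 10 genes summed to 270.7 ± 17.1 normalized counts in untreated 4T1, 1099 ± 31.3 in 4T1R1 and 989.7 ± 58 in 4T1R2 (SD, n = 3). Irgm1 made up 45.9% ± 2.61 of this sum in 4T1, 26.8% ± 1.73 in 4T1R1 and 28.2% ± 1.18 in 4T1R2. The 6 GBPs together made up 38.2% ± 1.3, 53.6% ± 1.41 and 51.9% ± 1.52, and the share of Gbp2 alone was 9.03%, 18.3% and 19.4%. In untreated 4T1 the order of levels per kilobase was led by Irgm1 (124.1 ± 7.01), apart from the next gene, Gbp3 (28.37 ± 1.99). From there down through Gbp9, Gbp2, Igtp, Gbp7 and Irgm2 (18.22 ± 2.56) each gene overlapped the next over libraries, so these neighbors were not separated. Gbp6 (5.00 ± 0.926), Iigp1 (2.85 ± 1.55) and Gbp5 (0.466 ± 0.808) came last. In 4T1R1 the order was Irgm1 (295.5 ± 26.7), Gbp2 (201.2 ± 7.9), Gbp3 (150.9 ± 8.7) and Gbp9 (103.2 ± 3.24), each of the first 3 without overlap with the next. Igtp, Irgm2 and Gbp7 followed between 95.43 and 97.03, and Gbp6, Iigp1 and Gbp5 again came last. In 4T1R2 the first 3 and last 3 were the same genes in the same order.

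**Figure D4:**
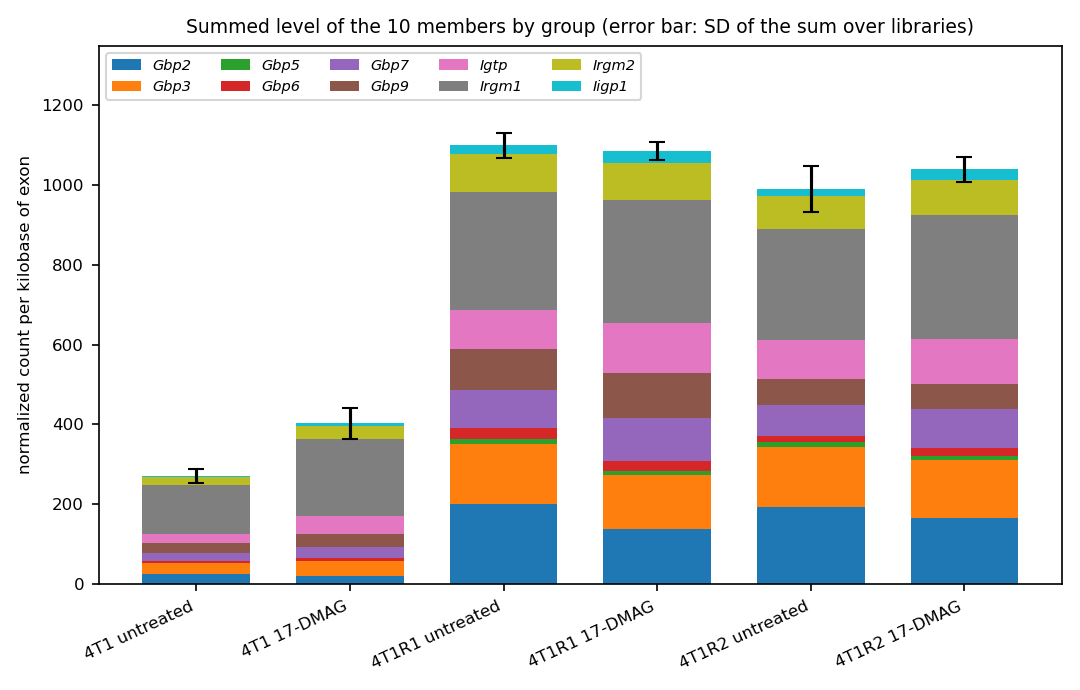
Summed level of the 10 members in each group, in normalized counts per kilobase of exon, stacked by gene, with the SD of the sum over libraries as the error bar. The sum rises from 270.7 in untreated 4T1 to 402.9 after 17-DMAG, and the 4 groups of the selected populations lie between 989.7 and 1099.

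17-DMAG was next compared with no treatment within each population. In 4T1, 4 of the 10 genes rose and 3 of these were the regulatory IRGs (18.5% of all genes were called higher and 17.9% lower). Irgm2 went from 74.57, 70.53 and 56.56 normalized counts to 124.7 and 131.8, Igtp from 49.72, 34.19 and 49.74 to 80.47 and 105.8, and Irgm1 from 285.9, 302.4 and 270.1 to 418.8 and 461.2. Treated and untreated values did not overlap in any of them. The log2 fold changes were 0.93 ± 0.162 (adjusted p = 4.1e-06), 1.04 ± 0.206 (adjusted p = 3.94e-05) and 0.62 ± 0.0947 (adjusted p = 3.67e-07). The 2 averaged replicates were not alike for Gbp7, with 82 raw counts among 28493864 in replicate 1 and 251 among 55094630 in replicate 2. Untreated 4T1 had 82 to 126 raw counts of it, so replicate 1 was not above all untreated libraries. Among the GBPs only Gbp7 passed, from 130.5, 87.62 and 97.52 to 134 (the average) and 181.5, or 0.56 ± 0.158 (adjusted p = 0.00376). That call was lost without replicate 3 of 17-DMAG-treated 4T1 (0.34, adjusted p = 0.195), where the lone averaged library is assumed to vary like the other groups. Gbp3 (0.31, adjusted p = 0.12), Gbp9 (0.31, 0.0686), Gbp5 (2.02, 0.128), Gbp6 (0.44, 0.455) and Iigp1 (0.90, 0.115) did not pass. Gbp3 passed without the averaged library (0.51, adjusted p = 0.0364), Gbp9 and Iigp1 without untreated replicate 1 (0.37, 0.0477 and 1.43, 0.0291), and Gbp5 without untreated replicate 2 (adjusted p = 0.0144). Gbp2 had 43.45 and 62.64 normalized counts after treatment, a difference of -0.24 with an interval from -0.64 to 0.15. None was called lower by edgeR's quasi-likelihood test, 0 at an unadjusted p under 0.05, and 0 by DESeq2. The median of the 10 was 0.59, beside 0.000645 over all genes.

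In 4T1R1, 1 gene rose and 1 fell (13.8% of all genes were called higher and 14.4% lower). Gbp2 fell from 502.8, 527.7 and 488.4 normalized counts to 372, 349.1 and 322, by 0.54 on the log2 scale (SE 0.0958, adjusted p = 1.58e-05), with no overlap. Igtp went from 193.9, 203.4 and 191.3 to 246.4, 286.7 and 228, a change of 0.37 ± 0.132 (adjusted p = 0.0281). This call of Igtp was lost without 4T1R1 untreated replicate 1 (adjusted p = 0.0693) or 3 (0.073) or 17-DMAG replicate 1 (0.0512) or 2 (0.176). It was also lost when Irgm1, Irgm2 and Igtp were summed to 1 feature (0.09, adjusted p = 0.288). Of the other 8 genes, Gbp3 (-0.17), Gbp6 (-0.11) and Irgm2 (-0.06) had values below 0 and Gbp7 (0.17), Gbp9 (0.11), Irgm1 (0.07), Gbp5 (0.055) and Iigp1 (0.51, adjusted p = 0.0933) above 0 without passing, and Iigp1 passed without 4T1R1 untreated replicate 1 (0.69, adjusted p = 0.0461). The median of the 10 was 0.06, beside -0.00856 over all genes.

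In 4T1R2 only Gbp7 passed (6.32% of all genes were called higher and 4.42% lower). It went from 446.9, 464.3 and 380.1 normalized counts to 474.4, 614.5 and 557.3, without overlap, a change of 0.35 ± 0.101 (adjusted p = 0.0156). The call was lost without untreated replicate 3 (adjusted p = 0.126) or 17-DMAG replicate 2 (0.154), with scaling by total counts alone (0.05), in the fit of 18 libraries (0.0647) and with Gbp3 and Gbp7 summed (0.15, 0.211). Iigp1 had 58.5, 54.77 and 39.76 untreated and 95.44, 91.75 and 57.06 after 17-DMAG, groups that overlapped (0.67 ± 0.244, adjusted p = 0.0653, and 0.87 with 0.0185 without 17-DMAG replicate 3). Gbp2 differed by -0.22 (adjusted p = 0.146), Igtp by 0.22 (0.331) and Irgm1 by 0.16 (0.196). The values of Gbp3 (-0.065), Gbp5 (-0.21), Gbp6 (0.25), Gbp9 (-0.065) and Irgm2 (0.08) did not pass either. No gene of the 10 was called lower by edgeR's quasi-likelihood test, and 1 had an unadjusted p under 0.05 in that direction. DESeq2 called 0 of the 8 with an adjusted p, as Gbp5 and Gbp6 had none. The median of the 10 was 0.12, beside -0.00189 over all genes.

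**Figure D5:**
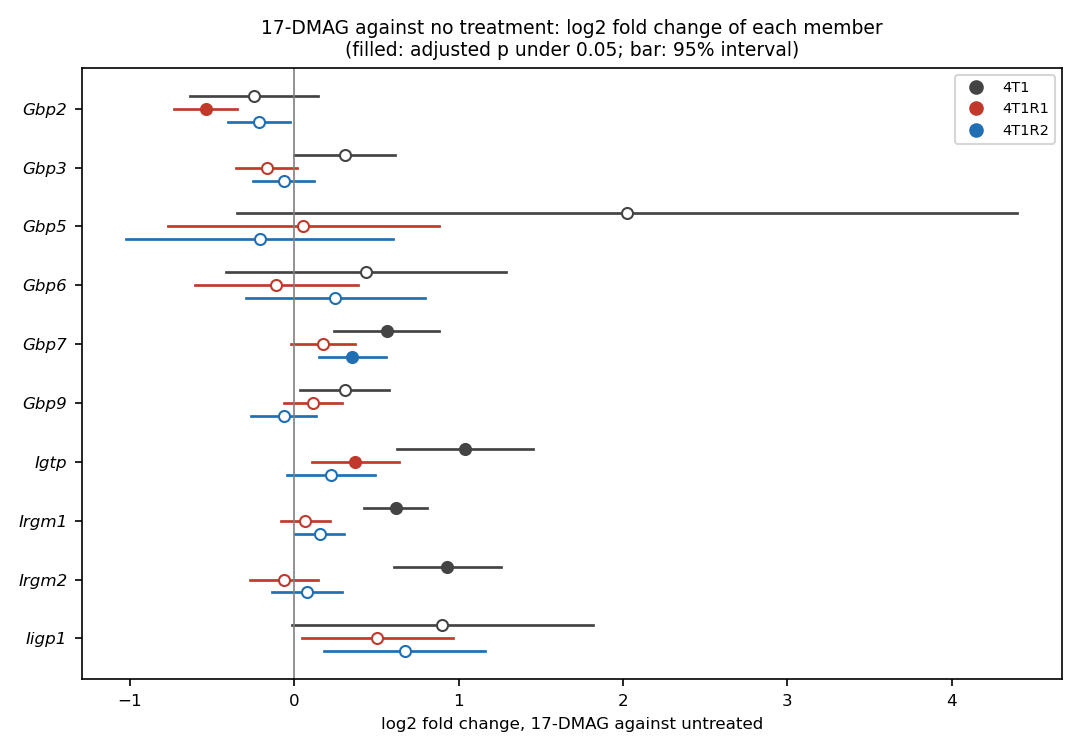
Log2 fold change of each member, 17-DMAG against untreated, in 4T1, 4T1R1 and 4T1R2, with 95% intervals (filled where the adjusted p is under 0.05). In 4T1 the filled points are Gbp7, Igtp, Irgm1 and Irgm2, between 0.56 and 1.04, in 4T1R1 Gbp2 and Igtp, and in 4T1R2 Gbp7.

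The difference between the responses was tested itself. The 3 regulatory IRGs responded less in both selected populations than in 4T1, and no other member differed at the threshold. Part of the type I interferon targets listed below responded less as well. In 4T1R1 minus 4T1, the difference in response was -0.99 ± 0.192 for Irgm2 (adjusted p = 8.8e-05), -0.55 ± 0.12 for Irgm1 (adjusted p = 0.000551) and -0.67 ± 0.245 for Igtp (adjusted p = 0.0468). In 4T1R2 minus 4T1 it was -0.85 ± 0.193 (adjusted p = 0.000753), -0.46 ± 0.121 (adjusted p = 0.00387) and -0.82 ± 0.246 (adjusted p = 0.0131). The other 7 genes had values from -1.97 (Gbp5) to -0.19 (Gbp9) in the former and from -2.235 (Gbp5) to 0.03 (Gbp2) in the latter, none past the threshold. Over all genes 9.08% were called higher and 9.21% lower in the former and 9.77% and 8.27% in the latter, and both use the same 4T1 libraries. The call of Igtp in 4T1R1 was lost in 8 of 17 fits without 1 library (4T1 untreated replicate 2, 4T1 17-DMAG replicate 3, 4T1R1 untreated replicates 1, 2 and 3, 4T1R1 17-DMAG replicates 1 and 3, and 4T1R2 untreated replicate 3, at adjusted p = 0.051 to 0.321) and under 5 of 11 other settings, among them DESeq2 (-0.67, adjusted p = 0.0585) and the replicate block (-0.65, 0.063). With Irgm1, Irgm2 and Igtp summed to 1 feature the difference in 4T1R1 minus 4T1 was -0.64 (adjusted p = 8.65e-07). Gbp3 passed in 4T1R1 minus 4T1 without the averaged 17-DMAG library of 4T1 (-0.68, adjusted p = 0.0213) or 4T1R1 untreated replicate 3 (-0.52, 0.0395), Gbp7 without that averaged library (-0.62, 0.0409) or 4T1 untreated replicate 1 (-0.57, 0.0331), and Gbp5 in both without 4T1 untreated replicate 2 (0.0353 and 0.0251). Without replicate 3 of 17-DMAG-treated 4T1 the values in 4T1R2 minus 4T1 were -0.39 for Irgm1 (adjusted p = 0.0574) and -0.62 for Igtp (adjusted p = 0.162), and without replicate 2 of untreated 4T1 that of Igtp was -0.67 (adjusted p = 0.0621). None was called higher by edgeR's quasi-likelihood test, 0 at an unadjusted p under 0.05, and 0 by DESeq2. Per kilobase the sum of the 10 genes was 402.9 ± 38.7 (n = 2) in 4T1, 1086 ± 22.7 in 4T1R1 and 1039 ± 30.9 in 4T1R2 after 17-DMAG, and the share of the GBPs in it 31.2% ± 0.563, 48.7% ± 0.755 and 48.2% ± 1.57.

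The other genes of the families were read from the same fit. Of 20 further interferon-inducible GTPase genes listed, 18 had a row, 11 passed the filter and Gvin1 and Gm4070 were at 0 in all libraries. Of the 11, 10 were higher in 4T1R1 than in 4T1 and 10 in 4T1R2, beside 25.2% and 25.7% of all genes tested. Gbp2b, the neighbor of Gbp2 and once listed as Gbp1, had 29, 34.19 and 21.45 normalized counts in 4T1, 350.8, 349.4 and 336.1 in 4T1R1 and 338.6, 361.2 and 292.4 in 4T1R2. Its log2 fold changes were 3.62 ± 0.2 and 3.55 ± 0.201. The effector IRGs Ifi47 (2.68 and 2.24), Tgtp1 (2.33 and 2.01) and Tgtp2 (2.67 and 2.54) were higher in both, as were Gbp10 (3.38 and 3.18) and Gm4951 (3.67 and 3.09), with few counts in 4T1. Of their windows, Tgtp1 shared 79.4% with Tgtp2, Tgtp2 85.8% with Tgtp1 and Gbp10 73.3% with Gbp6, so their counts may be split between copies. F830016B08Rik was at 0 in untreated 4T1. It was in 4T1R2 at least 7.36-fold and in 4T1R1 at least 17.2-fold higher, against a floor of 3 counts over the group that takes counts as independent. Irgq, an IRG-like gene, was higher by 0.34 and 0.39. Gbp8 passed in 4T1R1 (1.66, adjusted p = 0.0199, lost without 4T1 replicate 1 at 0.072 or 3 at 0.06 or 4T1R1 replicate 3 at 0.0611) and not in 4T1R2 (0.03, adjusted p = 0.977). Gm12250, which encodes Irgb10, passed in 4T1R2 (1.63, adjusted p = 0.0107) and not in 4T1R1 (1.09, 0.105).

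Gbp4, which shares exon bases with Gbp9 on chromosome 5, had 41.43, 52.36 and 34.13 normalized counts in 4T1, 195.8, 164.8 and 188.5 in 4T1R1 and 77.69, 50.86 and 56.14 in 4T1R2. On the log2 scale it was 2.11 ± 0.19 higher in 4T1R1 than in 4T1, and 4T1R2 differed from 4T1R1 by -1.55 ± 0.178 (adjusted p = 1.83e-10). Its difference of 4T1R2 from 4T1 (0.56, adjusted p = 0.024) came from overlapping groups, and was lost without 4T1 replicate 1 (adjusted p = 0.056) or 3 (0.137) or 4T1R2 replicate 1 (0.257). Gbp8 was lower in 4T1R2 than in 4T1R1 as well (-1.63, adjusted p = 0.0345, from 12 to 44 counts per group, a call lost without 4T1R1 replicate 2 or 3 or 4T1R2 replicate 1 or 3, at adjusted p = 0.0629 to 0.181, and with DESeq2, at 0.0611). The GBPs called lower in 4T1R2 than in 4T1R1 were Gbp4, Gbp6, Gbp8 and Gbp9 of the chromosome 5 cluster and Gbp7 of that on chromosome 3, while Gbp10 of the former differed by -0.19 (adjusted p = 0.759). After 17-DMAG, Gbp2b rose in 4T1 (0.74, adjusted p = 0.0151, lost without untreated replicate 3 at 0.0987 or without either 17-DMAG library at 0.0695 and 0.0762, and 0.14 with 0.502 when summed with Gbp2) and fell in 4T1R1 by 0.48 on the log2 scale (adjusted p = 0.00143). Irgq was lower after 17-DMAG in 4T1 (-0.26, adjusted p = 0.0129, lost without untreated replicate 3 at 0.0703 or 17-DMAG replicate 3 at 0.124) and in 4T1R1 (-0.30, adjusted p = 0.00179). None of the other 9 passed in either, with values from -0.84 (Tgtp1) to 0.98 (Gm12250) in 4T1 and from -0.24 (F830016B08Rik) to 0.57 (Gm4951) in 4T1R1. After 17-DMAG, 18.5% of all genes were called higher and 17.9% lower in 4T1, 13.8% and 14.4% in 4T1R1, and 6.32% and 4.42% in 4T1R2. In 4T1R2 edgeR's quasi-likelihood test called 0 of the 11, and 0 had an unadjusted p under 0.05. Their values ran from -0.45 (Gm12250) to 0.37 (Tgtp2). Of these genes DESeq2 gave an adjusted p only for Gbp2b, Gbp4 and Irgq, and called none of those.

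Genes within 250 kb of a member, no member themselves nor on the list of further GTPases, were counted by chromosome. Some of them lie over GTPase genes, as Gm12185 does, which shares 223 exon bases with Tgtp1. The counts of chromosome 11 pool the separate surroundings of Irgm1 and of Igtp and Irgm2. All are to be read beside the 25.2% and 27.5% of all genes called higher and lower in 4T1R1 and the 25.7% and 26.9% in 4T1R2. On chromosome 3, 2 of 3 tested neighbors were higher and none lower in 4T1R1 than in 4T1, with log2 fold changes of 0.08 to 0.13, and in 4T1R2 none was higher and 1 lower (-0.10 to 0.03). On chromosome 5, 1 of 3 was higher and 2 lower in both, with Zfp951 higher by 1.42 and 1.81. On chromosome 11, 3 of 13 were higher and 1 lower in 4T1R1, with Trim7 higher by 1.08 (adjusted p = 0.00668), and 2 were higher in 4T1R2. On chromosome 18, 2 of 5 were higher and 1 lower in 4T1R1 and 1 higher and 2 lower in 4T1R2. Synpo of that chromosome differed by -1.09 between 4T1R2 and 4T1R1, and Gm4841 and Gm12185, which were called there as well, had few counts in these groups.

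Genes upstream of the GTPases were counted next, and these counts and those of the target and partner lists against 4T1 stand beside 25.2% of all genes higher and 27.5% lower in 4T1R1 and 25.7% and 26.9% in 4T1R2. Of 20 interferon genes, 13 were at 0 in all 18 libraries, Ifng among them, and Ifnb1 had 13 counts in all, at most 4 in a library. Only Ifna13 and Ifnk were tested, and edgeR's quasi-likelihood test called neither in 4T1R1 or 4T1R2 against 4T1, 0 at an unadjusted p under 0.05 and 0 by DESeq2. Of the 21 tested receptors, kinases and STAT and IRF factors, 14 were higher and 1 lower in 4T1R1 than in 4T1, and 10 higher and 4 lower in 4T1R2. The median of the 21 was 0.63 in 4T1R1 and 0.07 in 4T1R2. Stat2 was higher by 0.69 and 0.94, Irf9 by 0.63 and 0.90 and Irf1 by 0.83 and 0.62, and these genes encode factors that act at the ISRE. Irf7, an amplifier of the type I response, was higher by 1.70 and 1.73, while Irf8 was lower, at -1.12 and -1.70. Among 8 negative regulators 2 were higher and 3 lower in each population, shares near those over all genes, with Usp18, which blocks signaling at the type I receptor, higher by 2.81 and 2.79.

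Of 31 type I interferon targets, 31 were higher in 4T1R1 than in 4T1 and 29 in 4T1R2, with medians of 1.35 and 1.63 on the log2 scale. Oas2 (4.47 in both), Mx1 (3.64 and 3.74) and Mx2 (3.30 and 3.56) had the largest log2 fold changes. Of 18 tested targets grouped as interferon-γ type, 15 were higher and none lower in 4T1R1 (0 by edgeR's quasi-likelihood test, 0 at an unadjusted p under 0.05 and 0 by DESeq2), and 12 were higher and 2 lower in 4T1R2, with medians of 0.80 and 0.27. The protease inhibitor Serpina3g, with a mean of 2.77 normalized counts in 4T1, was higher by 5.65 and 1.90, and the chemokine Cxcl10 by 2.03 in 4T1R2. In 4T1R2 against 4T1R1, 12 type I targets were higher and 3 lower (over all genes 19.7% and 19%), and 2 interferon-γ-type targets were higher and 11 lower, among them the immunoproteasome and peptide transport genes Psmb9 (-1.07) and Tap1 (-1.16).

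Partners of the GTPases were listed too (over all genes, 25.2% were higher and 27.5% lower in 4T1R1, and 25.7% and 26.9% in 4T1R2). Of 16 tested genes of the ATG conjugation machinery, which marks the vacuoles on which GBPs and IRGs gather, and of related adaptors, 9 were higher and 2 lower in each selected population. The autophagy receptor Sqstm1 was higher by 1.2 and 1.45, Trim21 by 1.08 and 1.03, Pim1 by 1.07 and 0.97 and Gabarapl1 by 0.64 and 0.92. Of 9 inflammasome genes, 6 were higher in 4T1R1 and 5 in 4T1R2, with Casp4, the sensor of lipopolysaccharide that GBPs help to expose, higher by 3.55 and 1.91 and Casp1 by 2.77 and 1.72. Of the 5 genes listed as enzymes of prenylation and of the processing after it, 3 were lower in each population. Of them 1, Fntb, was higher in 4T1R2 (0.23). Fnta, a subunit common to enzymes of this list, differed by -0.24 and -0.12.

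After 17-DMAG in 4T1, 17 of the 31 type I targets rose and 1 fell, with Rsad2 (2.38) and Ifit1 (2.01) the largest, and their median was 0.47. Of the 18 interferon-γ-type targets 3 rose and 2 fell, and of the 21 receptors, kinases and factors 3 rose and 8 fell. Over all genes 18.5% were called higher and 17.9% lower, so the shares that rose in these lists of 18 and 21 were near or below that over all genes. Irf1 fell by 0.43 on the log2 scale (adjusted p = 7.34e-07). Irf9 rose by 0.30 (adjusted p = 0.00588), a call lost with scaling by total counts alone (0.18, adjusted p = 0.0994) and without 4T1 untreated replicate 3 (0.21, 0.0815) or 17-DMAG replicate 3 (0.17, 0.267). Stat2 differed by 0.09 (adjusted p = 0.472). In the response of 4T1R1 minus 4T1, 9 of the 31 type I targets were lower and 1 higher (9.21% and 9.08% of all genes). For 4T1R2 minus 4T1 these were 7 and 1 (8.27% and 9.77%), and the medians were -0.26 and -0.29. Of the 18 interferon-γ-type targets, 2 were lower in the former and 1 higher in the latter. A weaker response was thus not particular to the regulatory IRGs.

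The genes whose pattern over the 17 libraries was most like the mean of the 10 members were found among 10323 other genes whose mean reached 100 normalized counts. They were Sorl1 (Pearson r = 0.988), a sorting receptor, Rab32 (0.988), a small GTPase of vesicle traffic, and the interferon-induced Ifi44 (0.985), Trim30a (0.985) and Ddx60 (0.984). The libraries share the step between 4T1 and the selected populations, so the values describe these 17 libraries and carry no test. Rab32 had 180.2 ± 7.34 normalized counts in untreated 4T1, 294.9 after 17-DMAG (n = 2), 880.3 ± 28.4 in untreated 4T1R1 and 903.3 ± 33 in untreated 4T1R2. Sorl1 had 1265 ± 31.3, 1422 ± 21.6, 2694 ± 122 and 2570 ± 25.6 in the same groups. The members' own correlations with their mean ran from 0.929 (Gbp5) to 0.991 (Irgm2).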

How the data were processed

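RNA with ribosomal RNA removed was sequenced as stranded libraries from 18 samples in 6 groups. The authors aligned reads with STAR to mm10 and counted them per gene with featureCounts (Subread 1.6.2). The deposited values were raw counts per gene, with 24421 rows. Whether counting used strand and how multi-mapped reads were handled are not given in the sources used here. Rn45s, a ribosomal RNA gene, took 9.54% to 15.6% of the counts, and 65.6% to 70.8% of counts from 1 to 12 were even.

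Genes passing filterByExpr (13507) were fitted with edgeR 4.0.16 (TMM scaling, robust quasi-likelihood test, Benjamini-Hochberg adjustment over all genes, threshold 0.05) in R 4.3.3. All 6 groups entered a single fit with no covariate. The fit on simulated counts for 4T1R1 against 4T1 over 13206 genes recovered 90.9% of 66 genes changed by 0.5 on the log2 scale. That fit also called 6 genes that had been left unchanged. Recovery was not split by expression level, so the 90.9% cannot be applied to genes with few counts, such as Gbp5. Normalized counts are counts scaled to 30965291 effective reads. The study calls the libraries of a group biological triplicates. The labels name no separate cultures, and p-values measure the spread between these samples. Intervals are 95%, and floors of 3 counts cover counting error only and take counts as independent. Most low counts were even, so that may not hold, and the folds given as at least may be too high. Shared windows are 50-base stretches of the annotated GRCm38 transcripts that another gene also holds. Motifs were searched on both strands.

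The naming rule took all 10 members and each further GTPase tested, and those that did not pass are in part given as a range. Of the other lists at most 4 members with the largest change past the threshold were named, plus Stat2, Irf1, Irf9, Ifnb1 and Ifng, and some genes that this rule would name are not reported here. Likeness was Pearson's r of log2(normalized count + 1) with the mean of the centered members. Members and lists were chosen with earlier results of these data known. Alternatives were RLE scaling, total counts alone, no filter, at least 10 counts in every library, DESeq2 1.42.0, Rn45s left out, only the groups compared, a replicate block, 18 separate libraries, a test against 1.2-fold (glmTreat), close copies summed and leaving out each library. Same-numbered samples did not deviate together (r from -0.0447 to 0.0526 in 30 pairs), so the numbers were not taken to pair samples.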

Additional observations from a re-analysis of the deposited data

Results flagged for a closer look

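The response to 17-DMAG differed between populations for the 3 regulatory IRGs and Gbp2b, as tested on the difference itself (edgeR's quasi-likelihood test with Benjamini-Hochberg adjustment over all genes). In 4T1R1 minus 4T1 the difference was -0.99 for Irgm2 (adjusted p = 8.8e-05), -0.55 for Irgm1 (0.000551), -0.67 for Igtp (0.0468) and -1.22 for Gbp2b (0.000834) on the log2 scale. In 4T1R2 minus 4T1 it was -0.85 for Irgm2 (adjusted p = 0.000753), -0.46 for Irgm1 (0.00387) and -0.82 for Igtp (0.0131). Both rest on the same 5 libraries of 4T1. Levels before treatment were higher in the selected populations for all 4 genes. Of 31 type I interferon targets, 9 were lower in 4T1R1 minus 4T1 and 7 in 4T1R2 minus 4T1 (9.21% and 8.27% of all genes), and 1 was higher in each. Gbp2b in 4T1R2 minus 4T1 had -0.74 (adjusted p = 0.0532) and passed without 4T1 untreated replicate 2 (-0.90, 0.0318), 4T1R2 untreated replicate 3 (-0.81, 0.0363) or 4T1R2 17-DMAG replicate 2 (-0.88, 0.018).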

How the results depend on the processing

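Of 2212 values of the 10 members under alternatives, 2150 kept their direction and side of the threshold, 42 lost a call, 20 gained one and 0 reversed, while 31 uncalled values changed sign. Against 4T1, 10 members were higher in both selected populations in every fit without 1 library and under every setting but the minimum of 10 counts in every library, which kept 7 of the 10, all 7 higher. In 4T1R2 against 4T1R1, 3 members were lower, 1 against 1.2-fold, and 1 to 3 without 1 library, and Gbp7 lost its call with close copies summed (-0.16, adjusted p = 0.0792). For 17-DMAG in 4T1R1, 1 was higher, 2 with only the groups compared, 0 against 1.2-fold and with close copies summed, and 0 to 1 without 1 library. For 17-DMAG in 4T1R2, 1 was higher, 0 with total counts alone, 18 separate libraries, 1.2-fold or close copies summed, 2 with no filter or only the groups compared, and 0 to 2 without 1 library. In the response of 4T1R1 minus 4T1, 3 were lower, 1 against 1.2-fold, 6 with close copies summed, and 2 to 5 without 1 library. A summed feature was fitted once and its value given to each of its genes, so these 6 are not separate tests. They were Irgm1, Irgm2 and Igtp in 1 feature (-0.64), Gbp3 and Gbp7 in 1 (-0.43, adjusted p = 0.0217) and Gbp2 summed with Gbp2b, which is no member (-0.66, 0.00361). Gbp2 by itself had -0.295 (adjusted p = 0.402). In the response of 4T1R2 minus 4T1, 3 were lower, 1 against 1.2-fold and 1 to 3 without 1 library. The replicate block changed the call of Igtp in 4T1R1 minus 4T1 (-0.65, adjusted p = 0.063), gave Gbp2b a call in 4T1R2 minus 4T1 (-0.78, adjusted p = 0.0432) and changed no other call of a member. Where a cause is not plain from the setting, the cause was not tested. Scaling by total counts alone shifted the median of all genes by -0.12 for 17-DMAG in 4T1, by 0.15 in the response of 4T1R1 minus 4T1 and by 0.07 in that of 4T1R2 minus 4T1. With it the share of calls that were higher was 21.8% against 50.8% in 4T1, 64% against 49% in 4T1R1, 24% against 58.9% in 4T1R2, 89.4% against 49.7% and 76.6% against 54.1% in the response differences. Against 1.2-fold that share was 39.3% against 51% in 4T1R2 against 4T1R1 and 84.7% against 58.9% for 17-DMAG in 4T1R2. Among the lists, the minimum of 10 counts left 3 of the 10 further GTPases higher in each selected population, 1 of the 2 lower in 4T1R2 than in 4T1R1 (also 1 with no filter, DESeq2 or 1.2-fold), and 3 inflammasome genes higher in place of 6 and 5. Against 1.2-fold, ATG genes higher went from 9 to 5 in 4T1R1, lower from 2 to 1 in 4T1R1 and 2 to 0 in 4T1R2, prenylation enzymes from 3 lower to 0 in each and 1 higher to 0, interferon-γ-type targets from 12 higher to 5 and 2 lower to 0 in 4T1R2, receptors and factors from 4 lower to 1 in 4T1R2, negative regulators from 3 lower to 0 in 4T1R1 and 1 in 4T1R2, and from 2 higher to 1 in 4T1R2, and inflammasome genes from 5 higher to 3 in 4T1R2. In 4T1R2 against 4T1R1, type I targets went from 12 higher to 6 and 3 lower to 0, and interferon-γ-type targets from 2 higher to 1. For 17-DMAG in 4T1, receptors and factors went from 3 higher to 0 and 8 lower to 4, and interferon-γ-type targets from 3 higher to 1 and 2 lower to 1 against 1.2-fold, while total counts alone gave 0 higher of the former and 1 higher and 7 lower of the latter, of which 1 was lower with only the groups compared and 4 with 18 separate libraries. Negative regulators lower in 4T1R1 were 1 with total counts, no filter, DESeq2 or only the groups compared, and interferon-γ-type targets lower in 4T1R2 were 1 with total counts, 10 counts, DESeq2 or only the groups compared. With a pseudocount of 5, 4 of the 5 most alike genes were shared. Gbp5, Gbp6 and Iigp1 had few counts in 4T1, which limits the precision of their differences.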
